A study of Mus musculus with 4 samples.

Results

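Of the 32285 genes in the count tables, 10 were followed here, picked out by symbol and chosen with earlier results of these data known: 7 matrix metalloproteinases (Mmp2, Mmp3, Mmp9, Mmp10, Mmp12, Mmp13 and Mmp14) and 3 tissue inhibitors of metalloproteinases (Timp1, Timp2 and Timp3). They were measured by Visium spatial transcriptomics in 4 sections of subcutaneous MC38 tumors, a C57BL/6 colon carcinoma line. The hosts were female F1 mice of 8 to 12 weeks, from C57BL/6J crossed with CC075/UncJ (CC075F1, 2 tumors) or with CC080/TauUncJ (CC080F1, 2 tumors). The study classes CC075F1 as responder and CC080F1 as non-responder strain to PD-1 blockade. Every mouse was injected with MC38 cells and received, at a tumor volume of 75 to 110 mm3, 1 dose of 200 µg of the isotype antibody 2A3. Tumors were taken 48 h later, so no section comes from a mouse given anti-PD-1. The labels give the 2 sections of a strain as biological replicates, so p-values between strains measure the spread between 2 tumors. The tumor cells are of the same line in both groups, and only the host cells carry the strain.

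Matrix metalloproteinases are zinc-dependent enzymes that cut collagens, gelatin, elastin and other proteins of the extracellular matrix. Most are secreted as inactive proenzymes, and Mmp14 stays in the cell membrane, where together with Timp2 it activates pro-Mmp2. The tissue inhibitors bind the active site of these enzymes. In tumors the enzymes and inhibitors are made by fibroblasts, macrophages, neutrophils and tumor cells alike, so the place of each transcript within the tissue is of interest.

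The sections held 2710 and 3276 spots in CC075F1 and 2787 and 3174 spots in CC080F1, and 82594649 to 146460975 unique molecular identifiers (UMIs) a section. A spot holds several cells and gave a median of 31139 to 41740 UMIs. The edge was defined as the spots within 3 steps of a grid position without tissue, which took 568 to 880 spots a section and was shallower than the interior in all 4 sections. In CC080F1 replicate 1 it includes the border of a large gap inside the tissue. Fibroblast markers summed to 2000 and 1223 CPM (UMIs of a gene per 1000000 UMIs of the section) in CC075F1 against 2972 and 2766 in CC080F1, and all 11 were detected in every section. T cell markers went the other way, at 69.0 and 64.4 against 19.0 and 19.9 CPM. Of the 7 markers listed for the tumor cells, the keratins and claudins were at or near 0 in all 4 sections, and Shisal2b supplied almost all of the list at 122.7 to 267 CPM. Spots rich in this list are therefore called Shisal2b-rich below.

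All 10 genes were detected, but 3 of them supplied most of the molecules. Timp2, the inhibitor that also helps to activate pro-Mmp2, took 53.6% and 64.3% of the UMIs of the 10 genes in CC075F1 and 56.6% and 58.5% in CC080F1. Among the enzymes, Mmp9, a gelatinase stored in neutrophil granules and also made by macrophages and tumor cells, took 69.2%, 38.7%, 56.0% and 57.4% of the enzyme UMIs in the same order of sections. Mmp2, the other gelatinase, took 21.5% in CC075F1 replicate 1 and 35.3% and 36.2% in CC080F1, and it exceeded Mmp9 in CC075F1 replicate 2 alone. Mmp10 (stromelysin 2) was close to the limit of detection, with 8, 3, 5 and 8 UMIs in the whole sections. It did not pass the filter on low counts in any comparison that used all sections. A UMI marks the 3′ end of 1 captured molecule and was not divided by gene length, so these shares describe captured molecules.

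**Figure D1:**
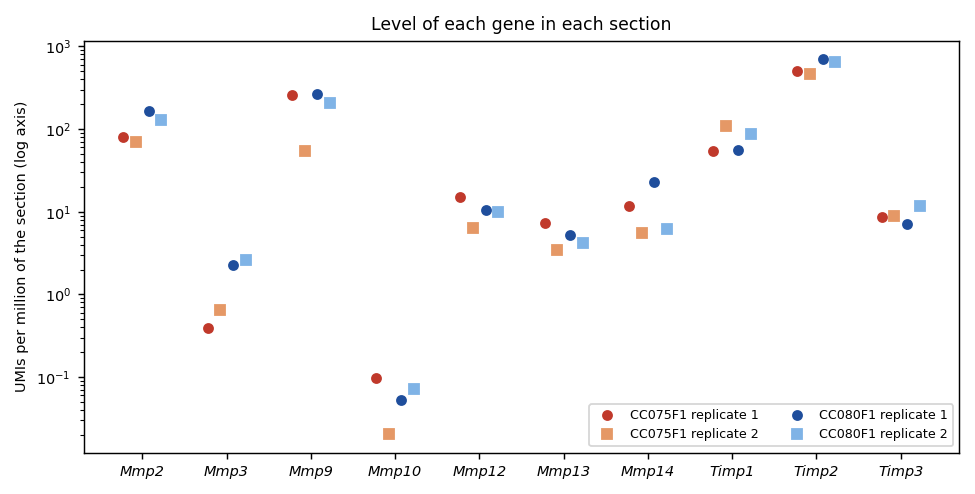
CPM of each of the 10 genes (log axis) in the 4 sections; each point is 1 section, red and orange for CC075F1 and blue for CC080F1, circles for replicate 1 and squares for replicate 2. Mmp2, Mmp3 and Timp2 lay lower in both CC075F1 sections than in both CC080F1 sections, and Mmp9 of CC075F1 replicate 2 lay apart at 54.6.

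In the GRCm38 genome, 4 of the enzymes lie within 237.7 kb of chromosome 9, all on the plus strand: Mmp13 (chr9:7272514-7283331), Mmp12 (chr9:7344381-7369499), Mmp3 (chr9:7445822-7455975) and Mmp10 (chr9:7502352-7510240). The others are spread over chromosomes 2 (Mmp9), 8 (Mmp2), 14 (Mmp14), 11 (Timp2), 10 (Timp3) and X (Timp1). Promoters of the chromosome 9 genes are shown because 3 of them, Mmp3, Mmp12 and Mmp13, had the 3 largest log2 ratios of tissue edge over interior. RefSeq promoter windows (GRCm38.p6, 250 bases before to 50 after the start site) were given for 8 of the 10 genes, with 2 start sites for Mmp12. They were searched on both strands for TGAGTCA, the consensus site of the AP-1 factors (Fos and Jun dimers). Each of the 4 chromosome 9 genes had 1 match, in Mmp12 only in the window of the second start site. In Mmp13 the match lies on the minus strand and reads TGACTCA as printed. The other 4 genes had none, and 5.20% of all 32851 windows of this length held a match. The match began 35 bases before the start site in Mmp13, 44 in the second Mmp12 window, 46 in Mmp3 and 63 in Mmp10. A match describes these letters and is not evidence of binding. The windows follow 5′ to 3′ on the plus strand with the match in capitals, as chr9:7272264-7272563, chr9:7347124-7347423, chr9:7445572-7445871 and chr9:7502092-7502391.
Mmp13: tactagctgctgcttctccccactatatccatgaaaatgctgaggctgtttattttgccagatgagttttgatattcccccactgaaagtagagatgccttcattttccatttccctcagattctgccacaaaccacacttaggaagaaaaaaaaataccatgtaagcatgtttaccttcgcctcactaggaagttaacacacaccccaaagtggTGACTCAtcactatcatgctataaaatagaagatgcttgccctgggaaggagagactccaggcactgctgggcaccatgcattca
Mmp12: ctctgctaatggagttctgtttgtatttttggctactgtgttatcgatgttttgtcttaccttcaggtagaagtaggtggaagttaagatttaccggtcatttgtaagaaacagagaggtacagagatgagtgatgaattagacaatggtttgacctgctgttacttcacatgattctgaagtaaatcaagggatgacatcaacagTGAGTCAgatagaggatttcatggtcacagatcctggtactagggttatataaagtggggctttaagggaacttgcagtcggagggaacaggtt
Mmp3: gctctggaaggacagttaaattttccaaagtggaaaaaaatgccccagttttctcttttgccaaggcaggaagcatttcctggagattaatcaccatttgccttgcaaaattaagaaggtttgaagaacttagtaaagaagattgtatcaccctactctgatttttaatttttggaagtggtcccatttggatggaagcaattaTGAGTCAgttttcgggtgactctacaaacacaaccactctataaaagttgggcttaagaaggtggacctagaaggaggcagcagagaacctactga
Mmp10: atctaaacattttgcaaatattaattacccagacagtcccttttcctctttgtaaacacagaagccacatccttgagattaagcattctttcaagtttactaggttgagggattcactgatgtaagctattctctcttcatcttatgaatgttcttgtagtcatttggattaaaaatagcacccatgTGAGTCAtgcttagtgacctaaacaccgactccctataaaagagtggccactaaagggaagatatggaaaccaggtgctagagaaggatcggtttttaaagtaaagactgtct

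The first comparison asked whether the 2 strains differed. In CC075F1 tumors Mmp2 had a level of 79.2 and 70.5 CPM, against 166 and 130 for CC080F1 tumors. The strains did not overlap and the CC080F1 mean was 1.98-fold higher. How many of all genes lacked overlap was not counted. Mmp3 (stromelysin 1, which cuts proteoglycans and activates other proenzymes) was at 0.387 and 0.649 in CC075F1 and at 2.24 and 2.62 in CC080F1, again without overlap, from 32 to 295 UMIs a section. Timp2 was at 497 and 463 against 694 and 648 CPM, a difference of 1.40-fold between the means. In the edgeR quasi-likelihood fit on section sums, none of the 9 genes tested passed an adjusted p of 0.05, where 0.0899% of all genes did. The log2 fold change of CC075F1 over CC080F1 was -1.83 ± 0.50 (SE) for Mmp3 (adjusted p = 0.52), -0.65 ± 0.23 for Mmp2 (adjusted p = 0.78) and -0.15 ± 0.31 for Timp2 (adjusted p = 0.92). At an unadjusted p under 0.05 there were 2 genes, Mmp2 and Mmp3, where 5.43% of all genes were. DESeq2 called 1 gene of the 9, Mmp3 (adjusted p = 0.043), and limma-voom 0. Over all genes DESeq2 also called more than edgeR did, as given in the closing section on processing. Without TMM scaling the median of all genes moved to -0.31, and Mmp2 and Timp2 to -0.98 and -0.48, so both depend on the scaling. Fewer cells of a type and less RNA per cell cannot be told apart in such sums. The summed fibroblast markers, too, were lower in both CC075F1 sections, but Col3a1 and Dcn supplied most of that sum. Of the 11 markers 7 overlapped between the strains, and Col1a1, Col1a2 and Bgn were highest in CC075F1 replicate 2. The part of fibroblasts in these differences was not tested.

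The other 6 genes overlapped between the strains, often because replicates of 1 strain lay far apart. Mmp9 reached 263 and 206 CPM in the CC080F1 sections, which lie on either side of CC075F1 replicate 1 (255), while CC075F1 replicate 2 was at 54.6. Without CC075F1 replicate 2 the log2 fold change of Mmp9 went from -0.44 to 0.18. Timp1, an inhibitor that inflammatory cytokines induce, was at 53.8 and 107 against 56.1 and 87.5, so in each strain replicate 2 was the higher section. Mmp14, the membrane-bound collagenase, was at 11.6 and 5.55 against 22.7 and 6.20, and CC080F1 replicate 1 alone was high. Mmp12 (macrophage elastase) was at 15.1 and 6.33 against 10.4 and 9.84, and Mmp13, a collagenase, at 7.26 and 3.45 against 5.19 and 4.23. Timp3, the inhibitor that binds to the matrix itself, was at 8.56 and 8.92 against 7.18 and 11.9.

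Shares of spots with at least 1 UMI, after each spot was thinned to 10000 UMIs, put the strains in the same order for Mmp2, Mmp3 and Timp2. Like library size alone, thinning does not remove the shift of all genes given above, so the shares are no separate evidence. Mmp2 was found in 52.8% and 48.4% of spots in CC075F1 against 79.6% and 70.2% in CC080F1. Mmp3 was found in 0.392% and 0.599% against 1.94% and 2.93%. Timp2 was found in 98.9% and 98.8% against 99.9% and 99.5%, so almost every spot of each tumor contained it. These 3 genes were the only ones without overlap of the strains in thinned spots, with p = 0.333 in the two-sided exact permutation test over sections. With 2 sections a strain no lower p can be reached. The exact test gives this p to any gene without overlap, so sections assigned at random would lack overlap in 0.333 of arrangements. The share of all genes without overlap was not counted, and these 3 genes are not read as exceeding it. Mmp9 was found in 87.9% and 40.0% against 91.2% and 84.6% of spots, and the section with 40.0% was again CC075F1 replicate 2.

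The next comparison set the edge of each tissue against its interior. Mmp12 was at 48.3, 15.2, 14.2 and 33.5 CPM at the edge (CC075F1 replicates 1 and 2, then CC080F1 replicates 1 and 2) and at 9.88, 5.01, 8.90 and 5.37 inside, so it was higher at the edge in 4 of 4 sections. Timp1 was at 75.2, 187, 81.9 and 133 at the edge and at 50.4, 95.5, 45.6 and 79.0 inside, also higher in 4 of 4. Both passed the test within sections, with log2 ratios of 1.75 ± 0.29 (SE, adjusted p = 0.045) for Mmp12 and 0.72 ± 0.06 (adjusted p = 0.0090) for Timp1. That is 2 of the 9 genes tested, where 0.871% of all genes passed. Mmp3 was at 1.96, 3.88, 3.27 and 10.5 at the edge against 0.140, 0.165, 1.82 and 1.13 inside. This was the largest contrast of the 9 genes, with a log2 ratio of 2.88 ± 0.53 and an adjusted p of 0.057. Mmp13 (1.38 ± 0.27, adjusted p = 0.064) and Timp3 (1.15 ± 0.26, adjusted p = 0.084) were higher at the edge in 4 of 4 sections as well, and Mmp14 (0.96 ± 0.23, adjusted p = 0.096) in 3 of 4. None of the 9 was called when CC075F1 replicate 1 or CC080F1 replicate 2 was left out, while 6 were called without CC080F1 replicate 1. The number of calls over all genes also moved widely with 1 section left out, as given in the closing section on processing. Without the fibroblast-rich spots, the log2 ratio was 0.50 for Timp1 and 1.65 for Mmp12 (adjusted p = 0.060 for both). In that fit Mmp13 was called, as the only 1 of the 9 genes. In 4 of 4 sections the edge was also richer in neutrophil markers (by 1.08, 1.78, 0.41 and 1.24 in log2), in endothelial markers (1.05, 1.05, 0.15 and 0.41) and in the Spp1-type macrophage list described below (0.27, 0.15, 0.57 and 0.37). Skin, muscle and fat markers were higher there by 4.45 in CC075F1 replicate 2. Fibroblast markers differed between sections, at -0.04, 1.61, -0.09 and 0.36, and the part of these cells in the edge results was not tested.

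Moran's I, the correlation of log2(CPM + 1) in a spot with that in its 6 nearest neighbours, describes how patchy a gene was at its own depth. For Mmp12 it was 0.30, 0.22, 0.39 and 0.36, the highest of the 10 genes in 3 of 4 sections, with Timp3 at 0.23 in CC075F1 replicate 2. Mmp3 had 0.01 in CC075F1 replicate 1, where it had 32 UMIs, and 0.08 to 0.19 elsewhere.

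The profile by distance showed how far inwards each gene extended. In CC075F1 replicate 1, Mmp12 fell from 84.1 CPM in the outermost step to 49.5 in the second and 21.8 in the third, and to 7.76 from step 13 on. CC080F1 replicate 1 differed, with 12.7 at step 1, 16.5 at step 3 and 13.6 at steps 6 to 8, before 0.834 from step 13 on. Mmp3 went from 14.8 CPM in the outermost step to 0.482 from step 13 on in CC080F1 replicate 2, from 7.79 to 0.0333 in CC075F1 replicate 2 and from 4.65 to 1.11 in CC080F1 replicate 1. Timp1 was at 102 CPM in steps 4 to 5 of CC075F1 replicate 2 and at 94.4 from step 13 on, but went on from 107 to 71.2 over the same distance in CC080F1 replicate 2. Mmp2 went from 122 to 63.3 CPM in CC075F1 replicate 2, an edge log2 ratio of 0.76, and its ratio was between -0.15 and -0.09 in the other 3 sections. Timp2 changed little with distance: it stayed between 474.6 and 529.9 in CC075F1 replicate 1 and between 633 and 666 in CC080F1 replicate 2. Over the 4 sections the log2 ratios of edge over interior were 0.03 ± 0.12 for Mmp2, -0.26 ± 0.07 for Mmp9 and -0.04 ± 0.06 for Timp2. Mmp9 was slightly lower at the edge in 4 of 4 sections but missed the threshold (adjusted p = 0.12). Mmp14 climbed again towards the centre of 1 section, from 16.2 at step 3 to 34.5 from step 13 on in CC080F1 replicate 1.

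**Figure D2:**
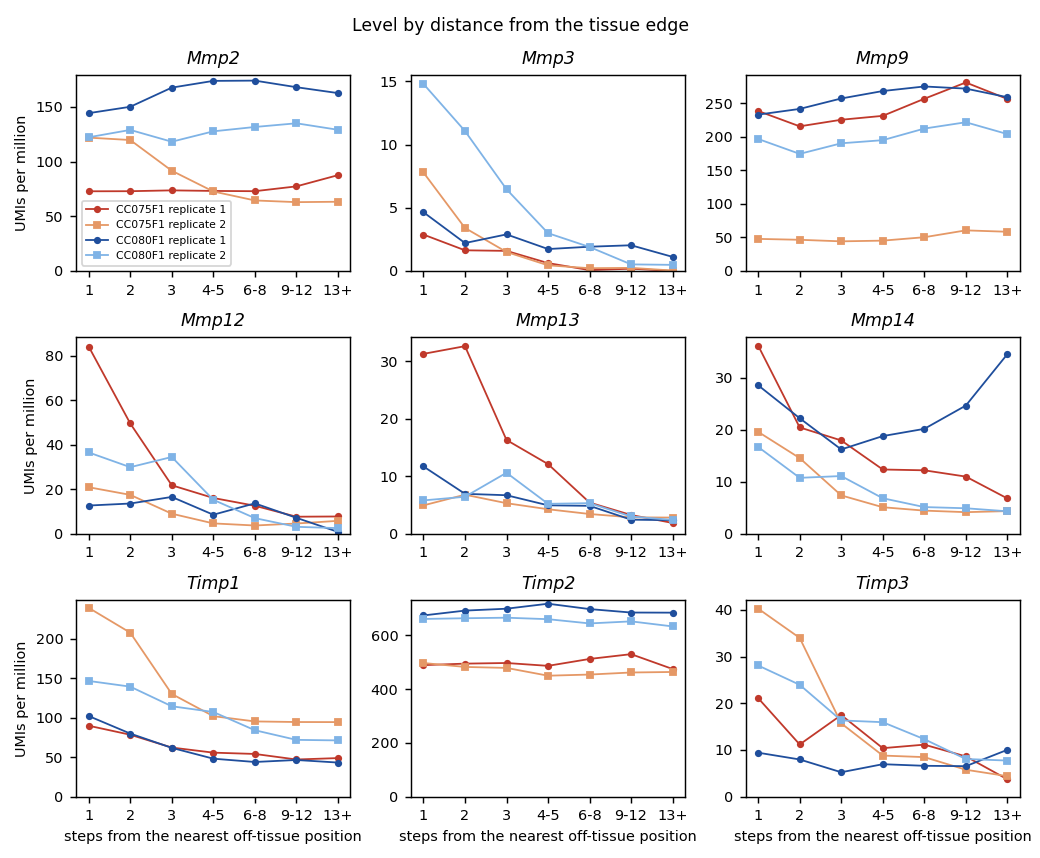
CPM of 9 genes by distance from the nearest grid position without tissue (in steps of the spot grid); each line is 1 section and each panel has its own axis from 0. Mmp3, Mmp12, Timp1 and Timp3 fell inwards in most sections, whereas Mmp2, Mmp9 and Timp2 stayed near 1 level, apart from Mmp2 in CC075F1 replicate 2.

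Whether the edge contrast differed between strains was tested as an interaction. No gene of the 9 passed, where 0.106% of all genes did (81.3% of them upwards, or 95.2% without TMM scaling), with 2 genes, Mmp3 and Timp3, at an unadjusted p under 0.05 in edgeR's quasi-likelihood fit, where 8.50% of all genes were. The difference of Mmp3 was 2.02 ± 0.78 in log2 (CC075F1 minus CC080F1, adjusted p = 0.53). Calls among the 9 genes changed when either CC080F1 section was left out. CC080F1 was then a single section, assumed to vary like the others, so those calls are not read.

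**Figure D3:**
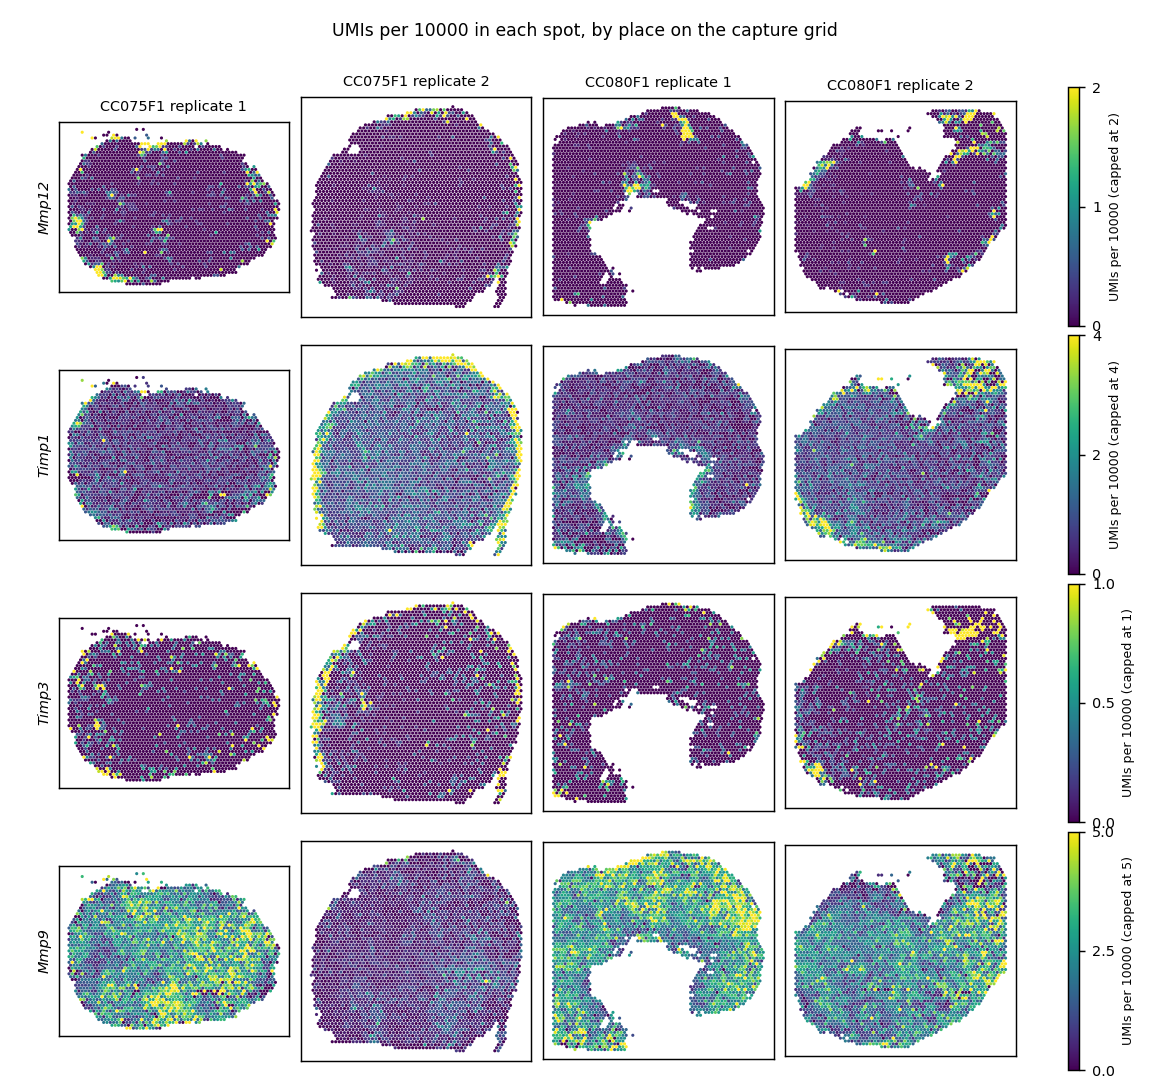
Spots of the 4 sections (columns) at their place on the capture grid, coloured by UMIs per 10000 of Mmp12, Timp1, Timp3 and Mmp9 (rows), with colours capped as each scale states. Mmp12 was gathered in a few patches, Timp1 and Timp3 lined parts of the boundary, and Mmp9 was spread through the tissue, at lower values in CC075F1 replicate 2.

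To see which cells each gene lay with, the 10% of spots richest in a marker list were set against the other spots of the same section. Spots are small regions, so this is co-occurrence and does not name the producing cell. In fibroblast-rich spots 5 of 9 genes passed, all upwards, where 8.53% of all genes passed (81.8% of them upwards, or 93.4% without TMM scaling). Mmp3 was at 3.60, 7.80, 10.6 and 28.0 CPM in these spots and at 0.131, 0.189, 1.45 and 1.06 elsewhere, so 41.0% to 72.6% of its UMIs lay in these spots. Its log2 ratio of 4.21 ± 0.39 (adjusted p = 0.0012) was the largest of the 9 genes over the 7 classes. Timp3 was at 31.8, 59.6, 18.1 and 60.4 against 6.71, 5.66, 6.14 and 8.91 (log2 ratio 2.41 ± 0.23, adjusted p = 0.0013). Mmp13 (1.73 ± 0.30, adjusted p = 0.014), Mmp14 (1.43 ± 0.31, adjusted p = 0.033) and Timp1 (0.95 ± 0.16, adjusted p = 0.012) rose too, in 4 of 4 sections each. Mmp3 and Timp3 passed under all 8 alternatives, whereas Mmp14 was called under 4 of 8 and was lost without any of 3 sections in turn (adjusted p = 0.073 to 0.16). Without CC080F1 replicate 2, Mmp13 and Timp1 also missed the threshold (adjusted p = 0.059 and 0.061). These spots lay at the edge in 53.8% to 75.3% of cases and were shallower than the rest. In CC075F1 replicate 2 their skin, muscle and fat markers were higher by 5.16 in log2. Endothelial markers were higher in them by 1.29, 1.56, 0.79 and 1.53, against 0.69, 2.97, 0.57 and 1.37 for the fibroblast list itself, and neutrophil markers by 0.80, 2.05, 0.10 and 0.82. The part of these cells in the results was not tested. With interior spots only, the log2 ratios of Mmp3 and Timp3 were 3.59 and 1.73.

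Mmp2, widely used as a marker of fibroblasts, was not called in fibroblast-rich spots (0.36 in log2, adjusted p = 0.31). It was at 201 CPM in these spots against 62.1 elsewhere in CC075F1 replicate 2, but at 75.8 against 79.5 in CC075F1 replicate 1, at 179 against 165 in CC080F1 replicate 1 and at 145 against 129 in CC080F1 replicate 2. CC075F1 replicate 2 was also the section with the highest log2 ratios of both the fibroblast list and the skin, muscle and fat list in these spots.

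Spots rich in the Spp1-type macrophage list (Spp1, Arg1, Trem2 and Gpnmb) had 3 of 9 genes called, all upwards, where 9.74% of all genes passed. Mmp12 was at 66.7, 21.5, 62.9 and 42.5 CPM in these spots and at 9.96, 4.99, 4.83 and 6.64 elsewhere (log2 ratio 2.88 ± 0.17, adjusted p = 1.6e-06). Between 27.6% and 58.2% of all Mmp12 UMIs lay in these 10% of spots. Mmp13 was at 15.9, 5.03, 12.2 and 6.87 against 6.40, 3.32, 4.45 and 3.97 (1.13 ± 0.14, adjusted p = 0.00033). Timp1 rose by 0.58 ± 0.05 (adjusted p = 5.8e-05). All 3 were higher in 4 of 4 sections and passed under all 8 alternatives. Without TMM scaling, calls over all genes went from 59.9% to 29.3% upwards, and these 3 stayed upwards. The spots were also richer in hypoxia genes, by 0.32, 0.68, 1.20 and 1.12 in log2, and in neutrophil markers, by 0.57 to 0.97, and the part of either in these results was not tested.

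The general macrophage list (such as Adgre1, Csf1r and C1qa) gave a weaker pattern. Here 2 of 9 genes passed, Timp3 (1.13 ± 0.25, adjusted p = 0.035) and Mmp13 (0.55 ± 0.11, adjusted p = 0.029), where 5.39% of all genes did, and neither passed without CC075F1 replicate 1 or CC080F1 replicate 2 (adjusted p = 0.13 to 0.21). Both were also lost with the top 25% of spots and with scores from thinned spots, and Timp3 with library size alone. Fibroblast markers were higher in these spots by 0.21, 1.89, 0.12 and 0.43 in log2, against 0.56, 0.97, 0.60 and 0.76 for the macrophage list itself. In CC075F1 replicate 2, 43.6% of them were also fibroblast-rich. The part of fibroblasts in these results was not tested. Mmp12 was not called (0.21 in log2, adjusted p = 0.60): it was at 28.2 and 9.83 CPM in macrophage-rich spots against 13.6 and 6.07 elsewhere in CC075F1, but at 8.32 and 7.41 against 10.7 and 10.1 in CC080F1.

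Neutrophils carry Mmp9 and Mmp8 in their granules. In neutrophil-rich spots Mmp9 was not called, at 258, 58.1, 275 and 197 CPM against 254, 54.3, 262 and 207 elsewhere (log2 ratio -0.01 ± 0.04, adjusted p = 0.96). The neutrophil markers were sparse and summed to 6.81 to 9.03 CPM over whole sections. Fibroblast and skin, muscle and fat markers were higher in these spots of CC075F1 replicate 2, by 0.89 and 2.15 in log2. Of the 9 genes 5 rose in these spots, where 1.28% of all genes passed: Mmp3, Mmp12, Mmp14, Timp1 and Timp3, by 0.30 to 1.57 in log2. Mmp12 rose by 1.02 ± 0.14 (adjusted p = 0.0016), but none of the 5 passed among interior spots only, where Mmp12 was at 0.07 (adjusted p = 0.93).

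Spots rich in endothelial markers had 6 of 9 genes called, where 18.4% of all genes passed. Timp3 was at 27.7, 37.5, 14.8 and 43.3 CPM against 6.59, 6.74, 6.39 and 8.97 elsewhere (log2 ratio 1.94 ± 0.13, adjusted p = 1.7e-07). Mmp3 (2.16 ± 0.32), Mmp13 (1.17 ± 0.19), Mmp14 (0.48 ± 0.15) and Timp1 (0.35 ± 0.06) rose too, with adjusted p of 0.00021 to 0.040. Mmp9 fell by 0.23 ± 0.06 (adjusted p = 0.014), and this was lost among interior spots (adjusted p = 0.0504), without TMM scaling, and without CC075F1 replicate 1 or CC080F1 replicate 2. Timp3, Mmp3 and Mmp13 passed under all 8 alternatives, Timp1 under all but interior spots only and Mmp14 under 4. Without TMM scaling, calls over all genes went from 59.9% to 87.4% upwards. Hypoxia genes were lower in these spots in 4 of 4 sections (log2 ratios of -0.97, -1.17, -0.84 and -1.15), while fibroblast markers were higher by 0.06 to 1.48 and T cell markers by 0.06 to 1.06. The part of these in the results was not tested.

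The Mmp12 contrast in endothelial-rich spots differed by strain. In endothelial-rich spots it was at 27.3 and 7.71 CPM against 13.8 and 6.22 elsewhere in CC075F1, but at 4.41 and 3.16 against 11.1 and 10.5 in CC080F1. In log2 the ratios were 0.98 and 0.31 against -1.33 and -1.73. The interaction, a test added after the data were seen, gave a difference of 2.15 ± 0.27 (adjusted p = 0.00086). It was the only one of 63 gene-by-class differences that passed, where 0.142% of all genes did in the 7 fits together and 16 of the 63 had an unadjusted p under 0.05, where 4.10% of all genes did. It missed the threshold among interior spots (1.47, adjusted p = 0.081) and without TMM scaling (2.21, adjusted p = 0.15). Neutrophil markers in these spots were also higher in CC075F1 (0.31 and 1.18 in log2) and lower in CC080F1 (-0.09 and -0.36). Spp1-type macrophage-rich spots made up 10.3% and 14.6% of them in the CC075F1 sections, against 9.68% and 1.89% for CC080F1. The part of either list was not tested.

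Spots with few host markers had 6 of 9 genes called, where 26.3% of all genes passed. Timp3 was at 1.97, 1.34, 2.61 and 4.62 CPM in them against 9.18, 10.2, 7.66 and 12.7 elsewhere (log2 ratio -1.81 ± 0.19, adjusted p = 3.8e-05), so these 10% of spots held 1.98% to 3.96% of its UMIs. Mmp3 had 0, 0, 6 and 14 UMIs in these spots (log2 ratio -1.69 ± 0.41, adjusted p = 0.0093, and 0.051 without CC080F1 replicate 1). Mmp2 fell by 0.22 ± 0.05 (adjusted p = 0.0037) and Mmp9 by 0.16 ± 0.04 (adjusted p = 0.018), and Mmp9 was not called without either CC080F1 section (adjusted p = 0.085 and 0.11). Mmp12 went the other way, at 12.7, 10.7, 55.7 and 33.5 against 15.3, 5.60, 5.72 and 7.16, higher in 3 of 4 sections (1.88 ± 0.39, adjusted p = 0.0037) but not called without CC080F1 replicate 2 (1.64, adjusted p = 0.066). These spots were richer in hypoxia genes by 0.96 to 1.42 in log2. The Spp1-type macrophage list was higher in the same 3 sections (-0.01, 0.39, 0.53 and 0.51), and 22.9% and 18.3% of these spots in CC080F1 were also Spp1-type macrophage-rich. The part of either was not tested. Timp1 was called upwards by 0.19 ± 0.05 but turned to -0.01 without TMM scaling, under which the median of all genes moved by -0.19 and upward calls went from 48.5% to 9.33%. In Shisal2b-rich spots 2 of 9 genes passed, both downwards, where 2.04% of all genes did (22.8% of them upwards, or 51.1% without TMM scaling): Mmp2 (-0.26 ± 0.05, adjusted p = 0.011) and Mmp12 (-0.68 ± 0.17, adjusted p = 0.042). Mmp2 was lost without any of 3 sections in turn, and Mmp12 was called under 2 of 8 alternatives only.

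**Figure D4:**
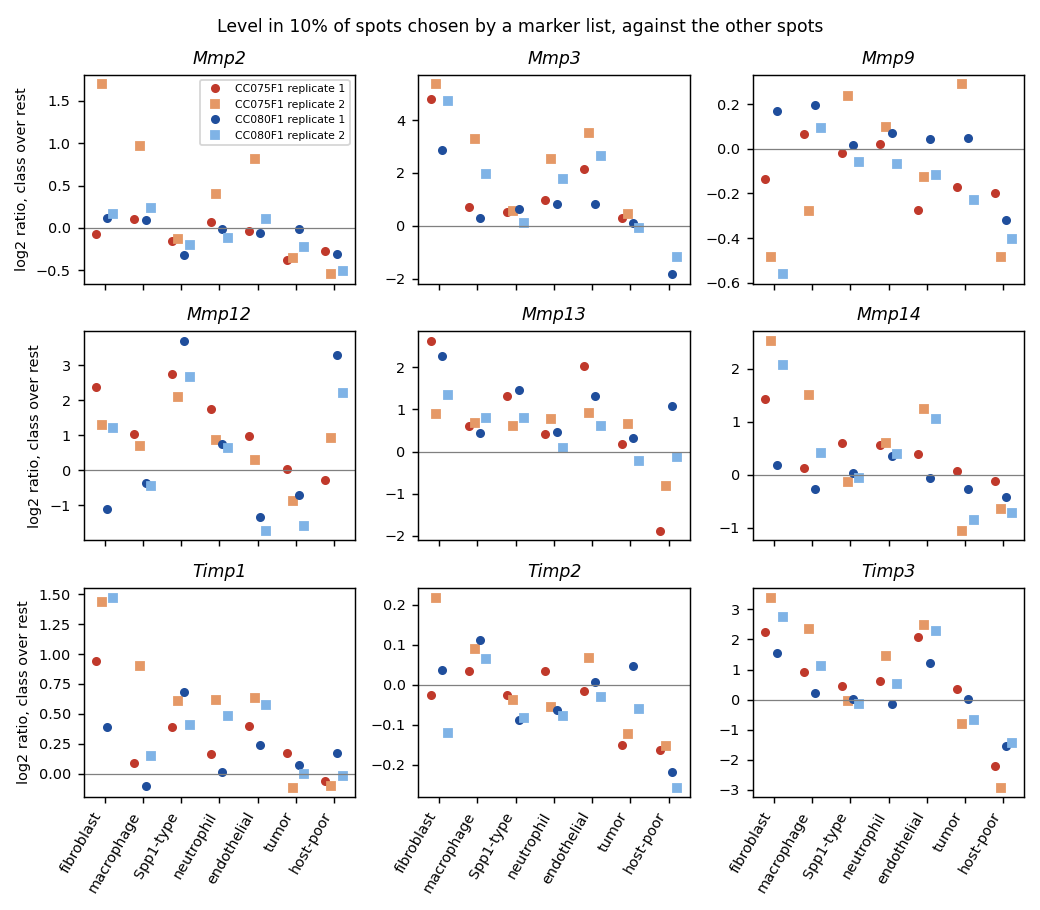
Log2 ratio of CPM in the spots of a class over the other spots of the section, for 9 genes and 7 classes; each point is 1 section, panels have their own axes, and the 2 CC075F1 sections without Mmp3 UMIs in host-marker-poor spots have no point there. Mmp3 and Timp3 stood highest in fibroblast-rich spots, Mmp12 in Spp1-type macrophage-rich spots, and Timp2 stayed between -0.26 and 0.22 throughout.

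The classes overlap, so a Poisson regression of the UMIs in each spot on 5 marker scores and the edge together was fitted in each section. It is a description without a test. The scores were fibroblast, general macrophage, neutrophil, endothelial and the tumor list led by Shisal2b. Per SD of the fibroblast score the rate of Timp3 was 1.26, 1.51, 1.45 and 1.42 times higher, and per SD of the endothelial score 1.61, 1.33, 1.28 and 1.29 times. Timp3 thus went with both lists with the other held. Mmp3 went with the fibroblast score, by 1.83, 1.98 and 2.35 in the 3 sections with enough UMIs, and with the edge by 5.77, 1.19 and 2.64 times, and stayed between 0.90 and 1.21 for the other 4 scores. Mmp13 went with the edge by 1.45 to 3.32 times in all 4 sections. Mmp12 went with the edge by 2.96, 3.17, 1.18 and 4.39 times and against the general macrophage score, by 0.96, 0.82, 0.58 and 0.72. The Spp1-type macrophage list, the class with the highest Mmp12 ratio, was not among the scores and so was not held in these values. For Timp2 no ratio in any section left the range 0.95 to 1.06.

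**Figure D5:**
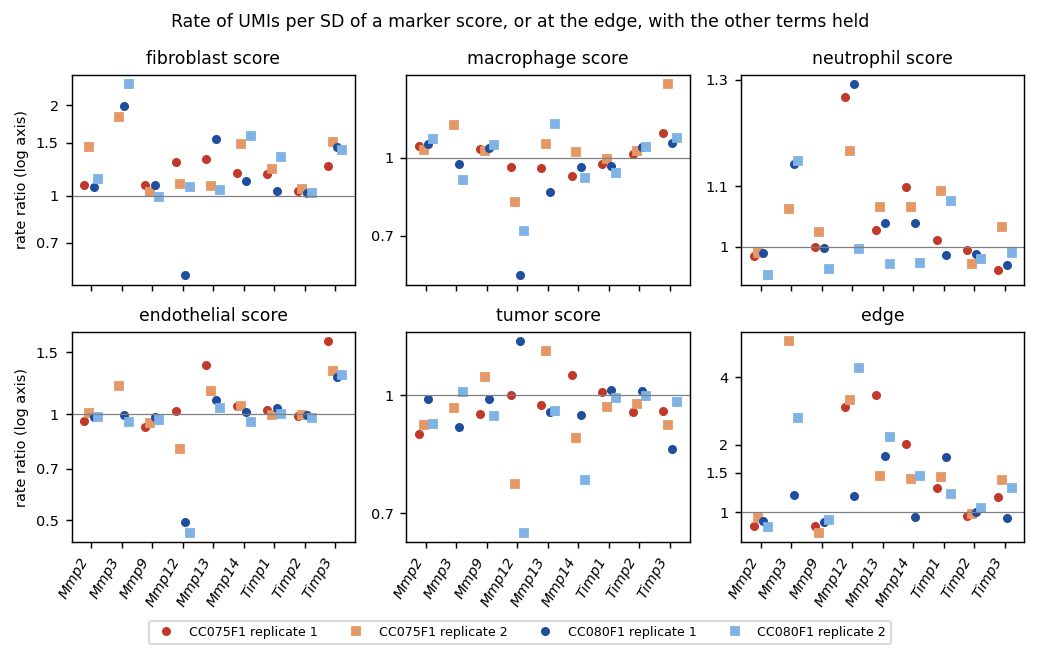
Rate ratios (log axis) from the Poisson regression of spot UMIs, per SD of each of 5 marker scores and for edge spots, with the other terms held; each point is 1 section, panels have their own axes, and 1.0 means no relation. Timp3 lay above 1 for the fibroblast, endothelial and general macrophage scores in 4 of 4 sections. Mmp12 lay below 1 for the general macrophage score in 4 of 4. The Spp1-type macrophage list was not a term.

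Correlations over tiles of about 5 by 5 spots (110 to 137 tiles a section) named the genes that varied most like each member, out of 8412. They are descriptions, since tiles of 1 section share a library and neighbouring cells. Mmp12 went with Arg1 (mean r 0.64), Lgals3 (0.60) and Il1rn (0.49), genes of activated macrophages, of which Arg1 is also in the Spp1-type list. Mmp2 went with Col3a1 (0.66), Col6a2 (0.59) and Col6a1 (0.57), and Timp2 with Col6a1 (0.64), Col6a2 (0.63) and Maged1 (0.57), so both went with collagens. Between each other, Mmp2 and Timp2 had r of 0.51, 0.63, 0.44 and 0.48. Timp1 went with Fbln2 (0.60), Col1a1 (0.59) and Cfp (0.58), and Mmp9 with Wls (0.58), AC149090.1 (0.57) and Sertad4 (0.56). Mmp9 and Timp1, which binds pro-Mmp9, had negative r in all 4 sections, from -0.17 to -0.45.

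The genes nearest to Mmp14 were mitochondrial: mt-Nd4 (mean r 0.72), mt-Nd2 (0.72) and mt-Co2 (0.71). In spots at or above the section's median mitochondrial share Mmp14 was at 18.7, 7.41, 36.6 and 8.62 CPM, against 5.53, 2.63, 9.06 and 3.27 in the spots below it. This was 2.63 to 4.03-fold, against 1.43 to 2.99-fold for Mmp3, 1.28 to 1.84-fold for Timp3, 1.07 to 1.19-fold for Timp1 and 0.93 to 1.09-fold for Timp2. The mitochondrial share was 2.13%, 1.70%, 2.38% and 2.04% of UMIs, the same order of sections as Mmp14. It was higher in fibroblast-rich spots in 4 of 4 sections, by 0.07 to 0.71 in log2, and at the edge in 4 of 4. Its part in the Mmp14 results was not tested.

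The wider set of 40 genes of matrix proteolysis (other metalloproteinases, Adam and Adamts proteases, plasminogen activators and their inhibitors) was read the same way. In fibroblast-rich spots 17 of 33 tested rose and 0 fell, where 8.53% of all genes were called, with a median log2 ratio of 0.58 against -0.03 for all genes. They included Adamts15 (4.72, from 20 to 131 UMIs a section), Mmp23 (3.28), Adamts2 (3.03) and Serpine2, a protease inhibitor (2.20). In endothelial-rich spots 17 of 30 rose and 3 fell (18.4% of all genes were called), with a median of 0.45 against -0.03, and Mmp15, a membrane-bound enzyme, rose by 1.87. In Spp1-type macrophage-rich spots 8 of 32 rose and 1 fell (9.74% of all genes were called). Those that rose included Serpinb2 (2.58, mostly from CC080F1 replicate 2), Mmp19 (0.98) and Adam8 (0.63). Mmp8, the neutrophil collagenase, rose too (2.20), from only 8 to 36 UMIs a section. At the edge 4 of 31 rose (0.871% of all genes were called), among them Adamts15 (2.77), Adamts2 (1.76) and Plat (0.70). Between strains 0 of 35 passed in edgeR's quasi-likelihood fit, where 0.0899% of all genes did. At an unadjusted p under 0.05 there were 7, where 5.43% of all genes were. DESeq2 called 2, Plau among them, and limma-voom 0. Over all genes DESeq2 also called more than edgeR did, as given in the closing section on processing. The highest in CPM was Bsg, which codes for an inducer of metalloproteinases on tumor cells, at 379 to 425.

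Of the 16 genes that induce metalloproteinases (cytokines and transcription factors), 0 passed between strains in edgeR's quasi-likelihood fit, and 0 with DESeq2 or limma-voom. At an unadjusted p under 0.05 in the edgeR fit there were 3, where 5.43% of all genes were. Il1b, the cytokine interleukin 1 beta, rose at the edge by 1.28 ± 0.19 (adjusted p = 0.035) and in Spp1-type macrophage-rich spots by 1.28 ± 0.22 (adjusted p = 0.0035). In the latter spots 6 of 15 rose and 0 fell (9.74% of all genes were called), with Fosl1, Fosl2, Jun and Junb, which form AP-1, at 0.25 to 0.41 in log2. In host-marker-poor spots 5 of 15 rose and 2 fell (26.3% of all genes were called, with the shift of upward calls under library size alone given above), with Fosl1 at 0.58 and Fosl2 at 0.57. In fibroblast-rich spots 4 of 16 rose (8.53% of all genes were called), including Fos (0.55 ± 0.11) and Tgfb1 (0.38 ± 0.07), while Fosl1 fell by 0.31 ± 0.08. Lists and members were chosen with earlier results known, so these counts describe and do not test.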

How the data were processed

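Fresh-frozen Visium sections of 4 tumors were analysed, 2 per strain, biological replicates per the labels. The deposited counts are whole UMI counts per gene and spot over tissue, which the authors made with Space Ranger 1.3.1 on GRCm38 with GENCODE vM23 annotation. All reads were thus aligned to the C57BL/6J reference although hosts also carry a CC haplotype, and slide or batch is not given in the sources used here. UMIs were summed per section, or per section and class of spot, and tested in edgeR 4.0.16 (R 4.3.3) with glmQLFit and glmQLFTest, filterByExpr, TMM scaling and Benjamini-Hochberg adjustment at 0.05 over all genes tested. SE is the log2 fold change over the root of F. Edge and class contrasts used the section as a block, since spots are not replicates. Classes were the top 10% of spots by the mean of log2(1 + UMIs per 10000) over a marker list that holds none of the 10 genes, or the lowest 10% by the mean of 5 host lists. Every spot in the files was kept, 1 of them empty, and no doublet calling applies to spots. Tile correlations used log2(CPM + 1) and genes of at least 10 CPM. Named genes were all 10 members, the called genes of both lists or the highest by level, and the 3 nearest genes of each member of at least 10 CPM. Members and lists were chosen with earlier results of these data known. DESeq2 1.42.0 and limma 3.58.1 served as alternatives, beside other scalings, filters, edge widths, class sizes, spot sets and sections left out. The fits were checked on simulated data. For the strain fit the simulated sections had a small fixed spread and no section effects. The check therefore does not cover the spread between these tumors. Tests of class by strain and the mitochondrial comparison were added after the data were seen. Locations come from GENCODE vM21 on GRCm38. Promoters were given for neither Mmp2 nor Mmp9 and are not analysed here. Values of 1 listed gene that is no member are not reported here.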

Additional observations from a re-analysis of the deposited data

Results flagged for a closer look

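Mmp12 ran in opposite directions by strain in endothelial-rich spots, higher than elsewhere in both CC075F1 sections and lower in both CC080F1 sections. The interaction gave a log2 difference of 2.15 ± 0.27 (SE, CC075F1 minus CC080F1, adjusted p = 0.00086 in edgeR's quasi-likelihood fit). Over the alternatives the difference ranged from 1.47 to 2.51, and with 1 section left out from 1.64 to 2.51. The sign with 1 section left out adds no support. The item was flagged for opposite directions in every section, and 1 strain was then a single section. The test was added after the data were seen, and the call was lost with interior spots only (adjusted p = 0.081) and with library size alone (adjusted p = 0.15).

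Mmp12 did the same in macrophage-rich spots, at log2 ratios of 1.05 and 0.70 in CC075F1 against -0.36 and -0.44 in CC080F1. That difference, 1.23 ± 0.23, did not pass (adjusted p = 0.69, edgeR).

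Mmp2 in neutrophil-rich spots was slightly higher in CC075F1 (0.07 and 0.40) and slightly lower in CC080F1 (-0.01 and -0.12), and the difference of 0.19 ± 0.09 did not pass either (adjusted p = 0.66, edgeR).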

How the results depend on the processing

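The strain comparison called 14 genes. It called 40 with library size alone, 480 without a filter, 287 with the replicate number as a block (replicate block; the labels do not say that a number pairs tumors, and deviations of same-numbered sections correlated at 0.17) and 194 with DESeq2. Leaving out 1 section gave 11 to 207. None of the members was called except Mmp3, without the filter, with the block and with DESeq2. The edge comparison called 125 genes, against 202 at 2 steps, 39 at 5 steps, 266 from the outer boundary only, 201 without skin, muscle and fat spots, 32 without fibroblast-rich spots, 683 without a filter, 596 with DESeq2 and 0 without the section block. Leaving out 1 section gave 1 to 854, and edge by strain 1 to 501 against 16. Classes with other counts were, for scores from thinned spots, fibroblast (705), neutrophil (101) and tumor-list (187), for interior spots only, neutrophil (29) and tumor-list (183), and for neutrophil also library size alone (102) and the top 25% (80). Leaving out 1 section gave 259 to 1731 for fibroblast-rich, 91 to 1420 for macrophage-rich, 422 to 1837 for Spp1-type, 1449 to 3011 for endothelial-rich, 158 to 310 for tumor-list-rich and 1849 to 3838 for host-marker-poor spots. Members without overlap of the strains in share of spots numbered 3, 5 at full depth, and 4 to 9 with 1 section left out, which leaves 1 section in a strain. A lack of overlap is then easier to reach. The share over all genes was not counted under any of these settings, so the counts are not read as a result about these genes.

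Reversed directions concerned small or uncalled values. Between strains, Timp3 was at -0.025 in interior spots and -0.13 with library size alone. Leaving out 1 section gave -1.52 to 0.18 for Mmp9, -0.10 to 0.63 for Mmp12, -1.09 to 0.65 for Mmp14, -0.38 to 1.15 for Timp1, -0.38 to 0.049 for Timp2 and -0.16 to 0.70 for Timp3. At the edge, Mmp2 was at -0.15 without fibroblast-rich spots, at -0.00043 without a filter and at -0.14 to 0.10 with 1 section left out, and Timp2 at 0.023 with library size alone. In host-marker-poor spots Timp1 was at -0.0068 with library size alone. The causes were not tested. Of 29 member calls in the 7 classes, 28 kept their sign under all alternatives and 10 also their call. Counting depth limits Mmp10, with 3 to 8 UMIs a section. Alternatives with interaction tests by class were added after the data were seen.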
